A study of Mus musculus with 6 samples.

Results

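The genes described here are 10 components and targets of bone morphogenetic protein (BMP) signaling in mouse embryonic stem cells (mESCs): the inhibitor of DNA binding genes Id1, Id2, Id3 and Id4, the ligands Bmp2, Bmp4 and Bmp7, the receptor Bmpr1a, the inhibitory Smad gene Smad6 and the secreted BMP antagonist Grem1. They were taken by gene symbol, and all 10 were found among the 28584 symbols of the deposited expression table. BMP ligands bind type I and type II receptors, the receptors phosphorylate Smad1 and Smad5, and these enter the nucleus with Smad4 and activate target genes, of which the Id genes are the best known. Id proteins carry a helix-loop-helix without a DNA-binding region and hold E proteins away from DNA, and in mESCs BMP or serum acting through the Id genes is known to support self-renewal together with leukemia inhibitory factor (LIF). Smad6 and Smad7 restrain the receptors from within the cell, and Grem1 and Nog bind BMP ligands outside it.

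Poly(A) RNA was sequenced from 6 libraries of 1 mESC line derived from C57BL/6 × 129S6 blastocysts, with 2 biological replicates in each of 3 groups. All cells had first been grown for 5 passages in mESC medium on mouse embryonic fibroblast (MEF) feeder cells inactivated with mitomycin C, and were then carried for 10 further passages (P10) in a basic medium with 20% fetal bovine serum and no cytokine (-LIF-ESCs), in the same medium with 1000 U/mL LIF (LIF-ESCs), or in the same medium with oncostatin M, a cytokine of the LIF family (OSM-ESCs). The serum was shared by all 3 groups and no group was given a BMP ligand or antagonist, and whether feeder cells were present in the later passages is not given in the sources used here. The comparisons ask which of these genes differed after culture with either cytokine, and whether the cytokines differed from each other.

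Expression is given as TPM, a transcript level in which the reads of a gene are divided by its length and every library is scaled to the same total. Reads recovered from TPM and exon length came to between 20712941 and 28994417 a library, and each value of the 10 genes was a whole number of reads. Differences were tested with limma on log2(TPM + 1), a scale on which the changes of weakly expressed genes appear smaller than they are. The test covered 18556 genes that reached 1 TPM in 2 or more libraries. To be called, a gene needed an adjusted p below 0.05 and a change of 2-fold or more, that is 1 on the log2 scale. All 10 genes were tested, although Grem1 entered only through the LIF-ESCs and OSM-ESCs libraries, since it was under 1 TPM in both -LIF-ESCs libraries. The pluripotency markers Pou5f1 and Sox2 were high in every group, though lower in -LIF-ESCs than with either cytokine. Pou5f1 had 540 and 551 TPM in -LIF-ESCs, 1180 and 1150 TPM in LIF-ESCs and 1180 and 1190 TPM in OSM-ESCs, and Sox2 was at 338 TPM or more in all libraries. Other markers fell further without a cytokine, such as Klf4 with means of 50.5, 359 and 326 TPM and Nr0b1 with 20.2, 316 and 259 TPM. Of 12 naive pluripotency markers, 11 passed higher and 1 lower with either cytokine, beside 42.2% and 25.9% of all tested genes with LIF. With OSM these shares were 42.9% and 25.4%. The paper describes the -LIF-ESCs colonies as differentiated, with large and flat cells.

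Compared with -LIF-ESCs, both cytokine groups expressed far more Grem1, less Bmp2, Bmp7, Bmp4, Id1, Id2 and Smad6, slightly less Bmpr1a and more Id3. Of the 10 genes, 1 was called higher in LIF-ESCs, beside 13.3% of all tested genes, and 5 were called lower, beside 8.09%. In OSM-ESCs 2 were called higher, beside 14.2% of all tested genes, and 4 were called lower, beside 7.86%. By adjusted p alone, whatever the fold, the 9 genes other than Id4 passed in both comparisons, 2 higher and 7 lower. Of all tested genes, 42.2% passed higher and 25.9% lower in LIF-ESCs, and in OSM-ESCs these shares were 42.9% and 25.4%. Both comparisons share the -LIF-ESCs libraries. For the 10 genes the median log2 difference with LIF was -0.951 and with OSM -0.919, where all tested genes had medians of 0.165 and 0.182. With libraries rescaled by the median ratio of their genes, the all-gene medians were 0.0121 and 0.0128, the share of calls that were higher went from 62.2% to 50.5% in LIF-ESCs and from 64.3% to 51.9% in OSM-ESCs, and no gene of the 10 that had passed changed direction.

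**Figure D1:**
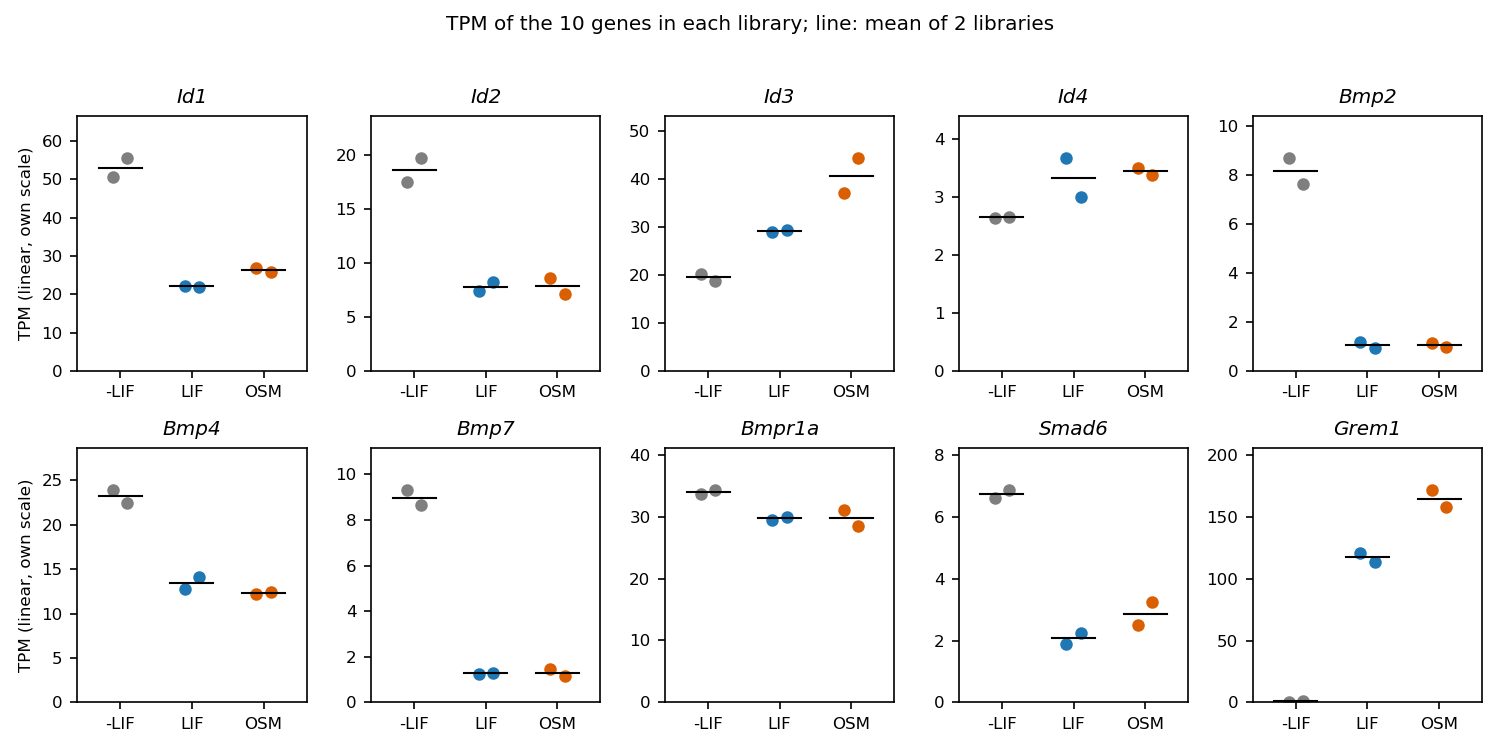
TPM (linear axis from 0, own scale for each gene) of the 10 genes in the 2 libraries of -LIF-ESCs, LIF-ESCs and OSM-ESCs, where points are libraries and lines are means. Bmp2, Bmp7 and Smad6 are higher in both -LIF-ESCs libraries than in any other, and Grem1 lies between 114 and 172 TPM with either cytokine and below 1 TPM without.

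The Id genes did not move together. Id1 and Id2 were lower with either cytokine, Id3 was higher, and Id4 did not pass the test. Id1, which lies at chr2:152736251-152737410 on the plus strand of GRCm38, had 50.6 and 55.4 TPM in -LIF-ESCs, 22.2 and 21.9 TPM in LIF-ESCs and 26.8 and 25.9 TPM in OSM-ESCs. Neither cytokine group overlapped -LIF-ESCs, where Id1 was the highest of the 10 genes. The log2 difference of Id1 was -1.23 in LIF-ESCs (SE 0.06, limma adjusted p = 3.69e-05) and -0.98 in OSM-ESCs (SE 0.06, adjusted p = 7.07e-05), the latter just short of 2-fold.

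Id2 (chr12:25093799-25097140, minus strand) had 17.5 and 19.7 TPM in -LIF-ESCs, 7.39 and 8.23 TPM in LIF-ESCs and 8.65 and 7.17 TPM in OSM-ESCs. Its fall was of like size with both cytokines, at log2 differences of -1.16 (SE 0.11, limma adjusted p = 0.000439) and -1.14 (SE 0.11, adjusted p = 0.00045). Id1 exceeded Id2 by 2.66 to 3.61 times in each of the 6 libraries, so the ratio of these genes was kept within that range while both fell.

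Id3 (chr4:136143497-136145755, plus strand) ran the other way, with 20.3 and 18.8 TPM in -LIF-ESCs, 28.9 and 29.4 TPM in LIF-ESCs and 37.0 and 44.3 TPM in OSM-ESCs. The 3 groups did not overlap, and OSM-ESCs were highest. Id3 rose by 0.55 on the log2 scale in LIF-ESCs (SE 0.09, limma adjusted p = 0.00348) and by 1.01 in OSM-ESCs (SE 0.09, adjusted p = 0.000342). The call of Id3 at 2-fold in OSM-ESCs was lost at 0.833 after rescaling, at 0.919 with voom on recovered reads, at 0.961 without -LIF-ESCs replicate 2 and at 0.887 without OSM-ESCs replicate 2, though the adjusted p was at most 0.00438 in each of these settings.

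Id4 (chr13:48261228-48266026, plus strand) was the lowest Id gene, with 2.64 and 2.65 TPM in -LIF-ESCs, 3.66 and 3 TPM in LIF-ESCs and 3.5 and 3.38 TPM in OSM-ESCs, from 95 to 158 reads a library. Its log2 differences of 0.24 (limma adjusted p = 0.104) and 0.28 (adjusted p = 0.0669) did not pass. Exons of the genes A330033J07Rik and Gm49291 overlap Id4 on the opposite strand, and whether reads were counted by strand is not stated, so reads of these genes cannot be told apart.

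Because Id1 and Id3 moved in opposite directions, the make-up of Id expression differed between groups. The TPM ratio of Id3 to Id1 was 0.402 and 0.34 in the -LIF-ESCs libraries, 1.3 and 1.34 with LIF and 1.38 and 1.71 with OSM. Id1 made up 55.5% and 57.3% of the summed TPM of the 4 Id genes in -LIF-ESCs, and from 32.1% to 35.7% in the cytokine libraries. Id3 went from 22.3% and 19.5% to between 46.5% and 54.9%. The sum itself was 91.0 and 96.6 TPM in -LIF-ESCs, 62.2 and 62.5 TPM in LIF-ESCs and 76.0 and 80.7 TPM in OSM-ESCs, with no overlap among the groups.

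All 3 ligand genes were lower with either cytokine. Bmp2 (chr2:133552159-133562885, plus strand) and Bmp7 (chr2:172868012-172940321, minus strand), which encode ligands of different BMP subfamilies, fell most. Bmp2 had 8.67 and 7.62 TPM in -LIF-ESCs, 1.17 and 0.935 TPM in LIF-ESCs and 1.14 and 0.974 TPM in OSM-ESCs, on 30 to 42 reads in each cytokine library. Mean TPM of Bmp2 was 7.74 times higher in -LIF-ESCs than in LIF-ESCs and 7.7 times higher than in OSM-ESCs, at log2 differences of -2.16 (SE 0.13, limma adjusted p = 6.97e-05) and -2.15 (SE 0.13, adjusted p = 6.84e-05). These differences stand at the 1.27 and 1.19 percentile of all tested genes.

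Bmp7 had 9.32 and 8.64 TPM in -LIF-ESCs, 1.25 and 1.3 TPM in LIF-ESCs and 1.45 and 1.17 TPM in OSM-ESCs. The log2 difference was -2.13 in LIF-ESCs (SE 0.11, limma adjusted p = 4.87e-05) and -2.11 in OSM-ESCs (SE 0.11, adjusted p = 4.94e-05), and the libraries with and without cytokine did not overlap. The ratio of Bmp7 to Bmp2 stayed between 1.07 and 1.39 in all 6 libraries.

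Bmp4 (chr14:46383520-46390669, minus strand), the ligand most often used with mESCs, was the highest of the 3 in every library and fell less. It had 23.9 and 22.4 TPM in -LIF-ESCs, 12.8 and 14.1 TPM in LIF-ESCs and 12.2 and 12.4 TPM in OSM-ESCs. The log2 differences of Bmp4, -0.75 (SE 0.07, limma adjusted p = 0.000341) and -0.86 (SE 0.07, adjusted p = 0.000201), were under 2-fold, and after rescaling by the median ratio the OSM-ESCs value was -1.035. Exons of Gm15217 overlap Bmp4 on the opposite strand. Summed over Bmp2, Bmp4 and Bmp7, ligand expression was 41.9 and 38.7 TPM in -LIF-ESCs, 15.2 and 16.3 TPM in LIF-ESCs and 14.8 and 14.5 TPM in OSM-ESCs. Bmp4 made up 57.0% and 58.0% of that sum in -LIF-ESCs and from 82.5% to 86.3% with a cytokine.

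Bmpr1a (chr14:34410734-34503341, minus strand), a type I receptor for Bmp2 and Bmp4, moved least of the 9 genes that passed. It had 33.7 and 34.3 TPM in -LIF-ESCs, 29.4 and 30.0 TPM in LIF-ESCs and 31.1 and 28.5 TPM in OSM-ESCs. The groups with and without cytokine did not overlap, but the log2 difference was only -0.19 in each comparison (SE 0.06, limma adjusted p = 0.0282 with LIF and 0.0298 with OSM). The test of Bmpr1a was not stable. Without any 1 library of the groups compared its adjusted p was 0.0794 to 0.117 with LIF. With OSM it was 0.0836 and 0.112 without 1 or the other -LIF-ESCs library, 0.0921 without OSM-ESCs replicate 2 and 0.0152 without OSM-ESCs replicate 1. Exons of Gm17110 overlap the gene on the opposite strand.

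Smad6 (chr9:63953076-64022059, minus strand), itself a BMP target that feeds back on the pathway, had 6.61 and 6.87 TPM in -LIF-ESCs, 1.9 and 2.25 TPM in LIF-ESCs and 2.5 and 3.24 TPM in OSM-ESCs. Both cytokine groups lay below -LIF-ESCs, by log2 differences of -1.34 (SE 0.13, limma adjusted p = 0.000438) and -1.01 (SE 0.13, adjusted p = 0.00127). In OSM-ESCs the value was under 2-fold at -0.982 without -LIF-ESCs replicate 2 and at -0.868 without OSM-ESCs replicate 1, with adjusted p-values of 0.0123 and 0.00688. Smad7, the other inhibitory Smad, had 22.2 and 19.9 TPM in -LIF-ESCs, 65.0 and 61.1 TPM in LIF-ESCs and 59.8 and 61.0 TPM in OSM-ESCs, and so moved in the opposite direction. Smad7 rose by 1.54 on the log2 scale in LIF-ESCs (SE 0.06, limma adjusted p = 2.6e-05) and by 1.48 in OSM-ESCs (SE 0.06, adjusted p = 2.83e-05). The ratio of Smad7 to Smad6 was 3.35 and 2.89 without a cytokine, 34.3 and 27.2 with LIF and 23.9 and 18.8 with OSM.

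Grem1 (chr2:113746164-113758646, minus strand), which encodes Gremlin 1 and binds Bmp2, Bmp4 and Bmp7, showed by far the largest change of the 10. It had 0.703 and 0.907 TPM in -LIF-ESCs, on 33 and 35 reads. In LIF-ESCs it had 121 and 114 TPM on 4715 and 4270 reads, and in OSM-ESCs 172 and 158 TPM on 7192 and 7952 reads. Its mean TPM was 146 times higher in LIF-ESCs than in -LIF-ESCs, from 126 to 172 times over the pairs of libraries, and 205 times higher in OSM-ESCs, from 174 to 244 times. The log2 differences were 6.04 (SE 0.08, limma adjusted p = 1.54e-06) and 6.52 (SE 0.08, adjusted p = 1.35e-06), and in both comparisons Grem1 ranked 6 from the top of the 18556 tested genes. Grem1 went from the last of the 10 genes in -LIF-ESCs to the first in both cytokine groups.

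Set against its ligands, Grem1 changed from a small fraction to an excess at the RNA level. The TPM ratio of Grem1 to the sum of Bmp2, Bmp4 and Bmp7 was 0.0168 and 0.0234 without a cytokine, 7.99 and 7.01 with LIF and 11.6 and 10.9 with OSM. The ratio of Nog to the same sum went the other way. It was 0.662 and 0.805 without a cytokine, 0.174 and 0.0803 with LIF and 0.11 and 0.117 with OSM. These are ratios of RNA in the whole culture, in which fewer cells that express a gene and less RNA per cell cannot be told apart.

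The sequence before the start site was read for the 7 of the 10 genes found in a table of RefSeq promoters (GRCm38.p6), which leaves out Id1, Bmp2 and Bmp7. Windows of 250 bases before to 50 after the start were searched on both strands for GGCGCC, a Smad1 and Smad5 type of motif, for the palindromic Smad box GTCTAGAC, for the shorter Smad box GTCTG, which does not occur within the palindrome, and for TTCCNGGAA, a Stat type of motif. The windows of Grem1, Smad6 and Bmp4 are shown, since these genes moved with both cytokines and their RefSeq starts lie within 2 bases of the annotated GENCODE starts. Each is printed from 250 bases before to 25 bases after the start, 5′ to 3′ on the strand of the gene, with matched motifs in capitals. The windows lie on the minus strand at chr2:113758624-113758898 for Grem1, chr9:64022035-64022309 for Smad6 and chr14:46390645-46390919 for Bmp4.
Grem1: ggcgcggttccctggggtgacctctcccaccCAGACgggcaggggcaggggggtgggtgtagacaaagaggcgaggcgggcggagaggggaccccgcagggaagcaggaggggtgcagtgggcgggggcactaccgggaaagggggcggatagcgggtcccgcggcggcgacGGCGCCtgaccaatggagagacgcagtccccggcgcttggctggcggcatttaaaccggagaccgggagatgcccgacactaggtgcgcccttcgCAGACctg
Smad6: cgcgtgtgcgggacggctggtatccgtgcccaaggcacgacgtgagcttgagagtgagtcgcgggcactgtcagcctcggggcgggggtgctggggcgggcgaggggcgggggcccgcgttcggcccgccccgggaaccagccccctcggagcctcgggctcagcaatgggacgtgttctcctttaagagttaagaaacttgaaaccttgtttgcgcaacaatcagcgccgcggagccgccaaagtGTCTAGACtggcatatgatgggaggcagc
Bmp4: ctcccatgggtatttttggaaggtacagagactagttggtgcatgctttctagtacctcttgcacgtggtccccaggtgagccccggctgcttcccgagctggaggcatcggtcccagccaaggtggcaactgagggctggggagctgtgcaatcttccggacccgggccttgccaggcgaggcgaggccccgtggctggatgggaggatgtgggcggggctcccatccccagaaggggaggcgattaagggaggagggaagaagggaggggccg
GTCTAGAC was found in the Smad6 window, beginning 4 bases before the start, and is held by 0.213% of the 32851 promoters of the table. Grem1 held GGCGCC at -78 and the complement of GTCTG at -219 and 18, and GGCGCC was also in the windows of Id2 at -231, Id4 at -148 and Bmpr1a at -198. Id3 held GTCTG or its complement at -167 and -68. These shorter motifs are common, since GGCGCC is in 11.9% and GTCTG in 49.6% of all promoters. The windows of Grem1, Id2, Id4 and Bmpr1a were also rich in G and C, at 63.3% to 79.3%, where the median of all promoters was 52.7%. No set of promoters of like content was compared. The RefSeq starts of Id2 and Bmpr1a lie 1048 and 795 bases from their GENCODE starts. The letters TTCCNGGAA, which 1.15% of promoters hold, were in none of the 7 windows, and Bmp4 held none of the 4 motifs. The matches are descriptions of these letters and no binding was measured.

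**Figure D2:**
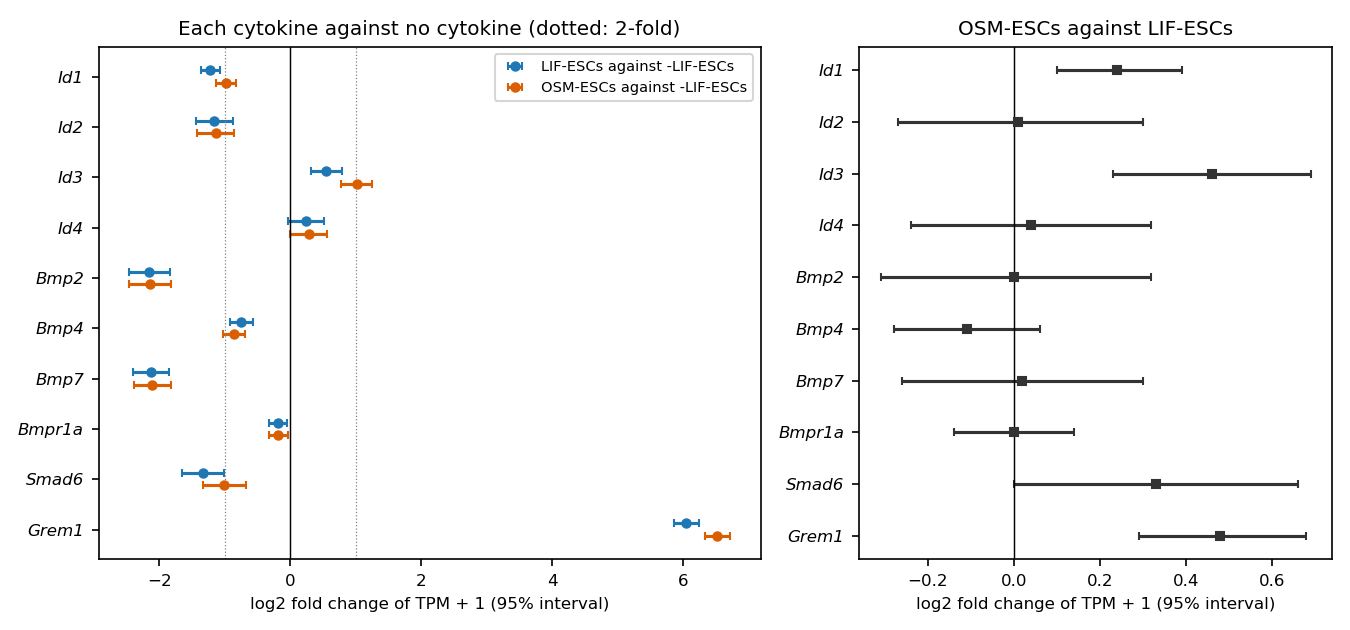
Difference in log2(TPM + 1) of each of the 10 genes with its 95% interval from limma, for LIF-ESCs (blue) and OSM-ESCs (orange) against -LIF-ESCs in the left panel and for OSM-ESCs against LIF-ESCs in the right panel, with 2 libraries a group. Grem1 stands at 6.04 and 6.52, Bmp2 and Bmp7 lie below -2 in both comparisons, and in the right panel the intervals of Id1, Id3 and Grem1 lie above 0.

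By mean TPM, the order in -LIF-ESCs was Id1, Bmpr1a, Bmp4, Id3, Id2, Bmp7, Bmp2, Smad6, Id4 and Grem1. The libraries of Id3 and Id2 overlapped there, as did those of Bmp7 and Bmp2. In OSM-ESCs the order was Grem1, Id3, Bmpr1a, Id1, Bmp4, Id2, Id4, Smad6, Bmp7 and Bmp2, and in LIF-ESCs it differed from that of OSM-ESCs only in Bmpr1a standing before Id3, at means of 29.7 and 29.2 TPM with overlapping libraries. Id4 did not change its level by a difference that passed, yet it stood above Smad6, Bmp7 and Bmp2 with either cytokine and below all of these without.

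OSM-ESCs and LIF-ESCs were close for these genes. None of the 10 passed the adjusted test between the cytokines, where 0.0323% of all tested genes were called higher in OSM-ESCs and 0.0485% lower, and 0.463% and 0.129% passed with no limit on the fold. At an unadjusted limma p under 0.05 there were 4 genes, Id1, Id3, Smad6 and Grem1, each higher in OSM-ESCs, beside 9.8% of all tested genes in that direction and 15.3% in either. Grem1 was 1.4 times higher in OSM-ESCs by mean TPM, at a log2 difference of 0.48 (95% interval 0.29 to 0.68, limma adjusted p = 0.0784). Id3 differed by 0.46 (95% interval 0.23 to 0.69, limma adjusted p = 0.121), Id1 by 0.24 (0.10 to 0.39, adjusted p = 0.161) and Smad6 by 0.33 (0.00 to 0.66, adjusted p = 0.326). For these 4 genes both OSM-ESCs libraries were above both LIF-ESCs libraries. With limma's voom on recovered reads, Grem1 (adjusted p = 4.32e-09) and Id3 (adjusted p = 0.00128) passed, and neither reached 2-fold. For Id2, Bmp2, Bmp7 and Bmpr1a the libraries of the 2 groups overlapped, and the 95% intervals of the log2 difference ran from -0.27 to 0.30 for Id2, from -0.31 to 0.32 for Bmp2, from -0.26 to 0.30 for Bmp7 and from -0.14 to 0.14 for Bmpr1a. Bmp4 was lower in both OSM-ESCs libraries, by 0.11 on the log2 scale with an interval of -0.28 to 0.06 (limma adjusted p = 0.507).

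The other genes of the pathway were read from a list of 56 ligands, receptors, Smads, antagonists, targets and E proteins, of which 51 were analysed and 43 tested. With LIF 5 of the 43 were called higher and 7 lower, beside 13.3% and 8.09% of all tested genes. With OSM 7 were called higher and 7 lower, beside 14.2% and 7.86%. By adjusted p alone, 13 were higher and 16 lower with LIF, where all tested genes had 42.2% and 25.9%, and 15 were higher and 13 lower with OSM, where all had 42.9% and 25.4%. After rescaling by the median ratio these counts were 11 higher and 20 lower with LIF, and 12 higher and 17 lower with OSM. The median log2 difference of the list was -0.065 with LIF and 0.0733 with OSM, both below the all-gene medians of 0.165 and 0.182, and after rescaling it was -0.23 and -0.1. Of the 43, 5 were under 1 TPM in both -LIF-ESCs libraries, among them Acvrl1, Bmper and Atoh8. These 5 were tested only because they were higher with a cytokine. Dlx3, Cer1, Hey1 and Hfe2, among others, were under 1 TPM in every cytokine library. They were tested only because they were higher in -LIF-ESCs.

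The ligands, receptors and Smads of the list held few calls. Of the 4 other ligands tested, 1 passed in each comparison, Bmp8b, at log2 differences of -0.41 and -0.37 (limma adjusted p = 0.00155 and 0.00227). Among 10 receptors and co-receptors, 2 passed higher and 4 lower with LIF, and 2 higher and 3 lower with OSM, with 1 called higher in each comparison, the type I receptor gene Acvrl1 at 1.05 and 1.23. After rescaling Acvrl1 was under 2-fold with LIF, at 0.96. The co-receptor gene Hfe2 was called lower with OSM, at -1.01 (limma adjusted p = 0.00279), and passed under 2-fold with LIF, at -0.73. Smad1, Smad4 and Smad5, which carry the signal to the nucleus, did not pass in either comparison, with log2 differences from -0.11 to 0.13. After rescaling Smad4 did pass, at -0.22 with LIF (limma adjusted p = 0.018) and -0.29 with OSM (adjusted p = 0.00642), and with voom both Smad4 (adjusted p = 0.00286 and 0.000122) and Smad1 (0.041 and 0.0405) passed lower. Of the E proteins, the partners that Id proteins bind, Tcf12 was higher by 0.76 and 0.88 on the log2 scale (limma adjusted p = 0.000219 and 0.000129), Tcf4 by 0.43 and 0.58, and Tcf3 did not pass at -0.06 and -0.03. Bmp8b, Acvrl1, Hfe2, the Smad genes and the E proteins are named here after their values were seen.

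Antagonists other than Grem1 moved by larger amounts and in both directions. Of 11 tested, 3 were called higher and 2 lower in each comparison, beside 13.3% and 8.09% of all tested genes with LIF and 14.2% and 7.86% with OSM. Some of these calls could go only 1 way. Bmper, among others, passed the filter only through the cytokine groups, and Cer1 only through -LIF-ESCs. Nog and Nbl1 were above 1 TPM in all libraries. Nog, which encodes Noggin, went opposite to Grem1, with 27.7 and 31.1 TPM in -LIF-ESCs, 2.64 and 1.31 TPM in LIF-ESCs and 1.64 and 1.7 TPM in OSM-ESCs. The log2 differences of Nog were -3.39 (SE 0.22, limma adjusted p = 0.0001) and -3.51 (SE 0.22, adjusted p = 8.72e-05). Nog RNA exceeded Grem1 RNA by 39.5 and 34.3 times in -LIF-ESCs, whereas Grem1 exceeded Nog by 45.9 and 87.2 times in LIF-ESCs and by 105 and 92.8 times in OSM-ESCs.

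Nbl1, an antagonist of the same family as Grem1, rose from 2.09 and 2.33 TPM to 13.6 TPM in both LIF-ESCs libraries and to 19.8 and 20.2 TPM in OSM-ESCs, by 2.19 and 2.71 on the log2 scale (limma adjusted p = 1.11e-05 and 6.08e-06). Bmper, which encodes a BMP-binding protein, had 0.53 and 0.245 TPM in -LIF-ESCs, 3.22 and 3.99 TPM in LIF-ESCs and 5.78 and 6.09 TPM in OSM-ESCs (1.73 and 2.33, limma adjusted p = 0.000294 and 0.000101). Cer1, an antagonist of Nodal as well as BMP, was instead lower with either cytokine, from 1.57 and 1.67 TPM to 0.0613 and 0.0637 TPM in LIF-ESCs, on 1 read in each library, and 0.285 and 0.19 TPM in OSM-ESCs (limma adjusted p = 0.000874 and 0.00176).

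**Figure D3:**
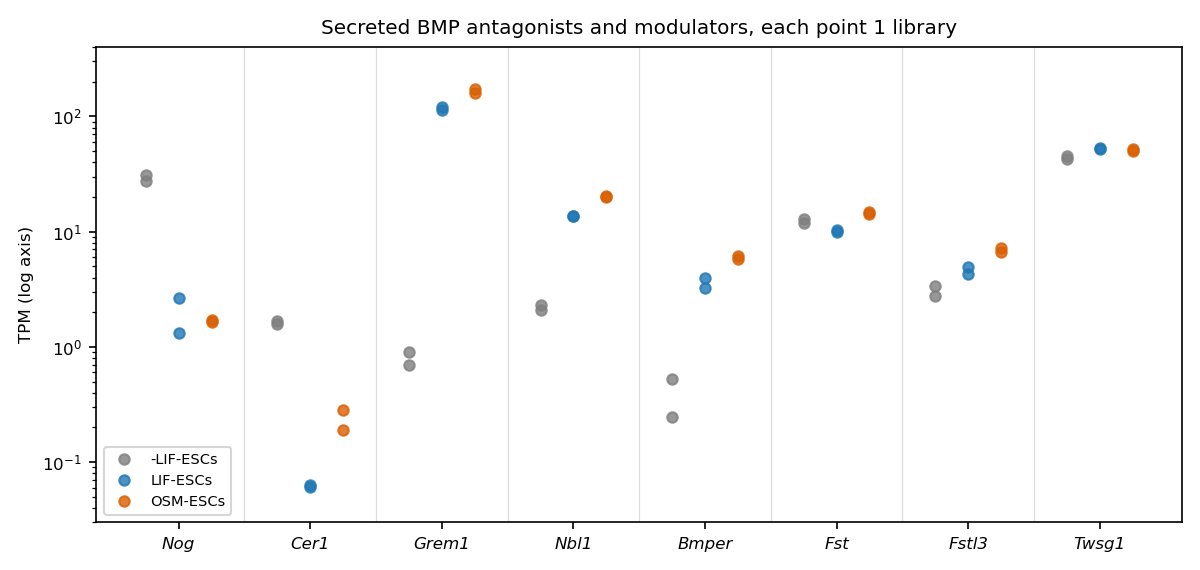
TPM (log axis) of Grem1 and 7 other secreted BMP antagonists and modulators in the 6 libraries, where each point is 1 library and colors are -LIF-ESCs (grey), LIF-ESCs (blue) and OSM-ESCs (orange). Nog and Cer1 are highest in -LIF-ESCs, Grem1, Nbl1 and Bmper are highest in OSM-ESCs, and Fst and Twsg1 lie within a narrow range.

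Of 9 other target genes tested, 5 were called lower in LIF-ESCs and none higher, while in OSM-ESCs 4 were called lower and 2 higher. Of all tested genes, 8.09% were called lower with LIF and 7.86% with OSM, and 13.3% and 14.2% higher. Dlx3, Hey1, Tbx20 and Msx1 passed the filter only through -LIF-ESCs, and Atoh8 only through the cytokine groups. The filter thus favored the direction in which these genes moved, and their part in the counts is no support for it. Dlx3, a homeobox gene, had 7.56 and 8.37 TPM in -LIF-ESCs, 0.164 and 0.255 TPM in LIF-ESCs and 0.456 and 0.19 TPM in OSM-ESCs, at log2 differences of -2.89 and -2.77 (SE 0.15, limma adjusted p = 5.26e-05 and 5.93e-05). Msx2, also a homeobox gene, had 7.06 and 8.26 TPM, 1.3 and 1.45 TPM, and 2.17 and 2.54 TPM in the same order of groups, and fell by 1.86 and 1.37 on the log2 scale (SE 0.12, limma adjusted p = 9.96e-05 and 0.000299). Hey1, which Notch also activates, fell from 2.43 and 3.32 TPM to 0.686 and 0.713 TPM in LIF-ESCs and 0.788 and 0.53 TPM in OSM-ESCs (limma adjusted p = 0.00202 and 0.00177). The 2 targets called higher in OSM-ESCs, Atoh8 at 1.08 and Zfp503 at 1.24, had passed in LIF-ESCs at 0.68 and 0.80, under 2-fold. By adjusted p alone, 2 targets were higher and 6 lower in each comparison, beside 42.2% and 25.9% of all tested genes with LIF and 42.9% and 25.4% with OSM.

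**Figure D4:**
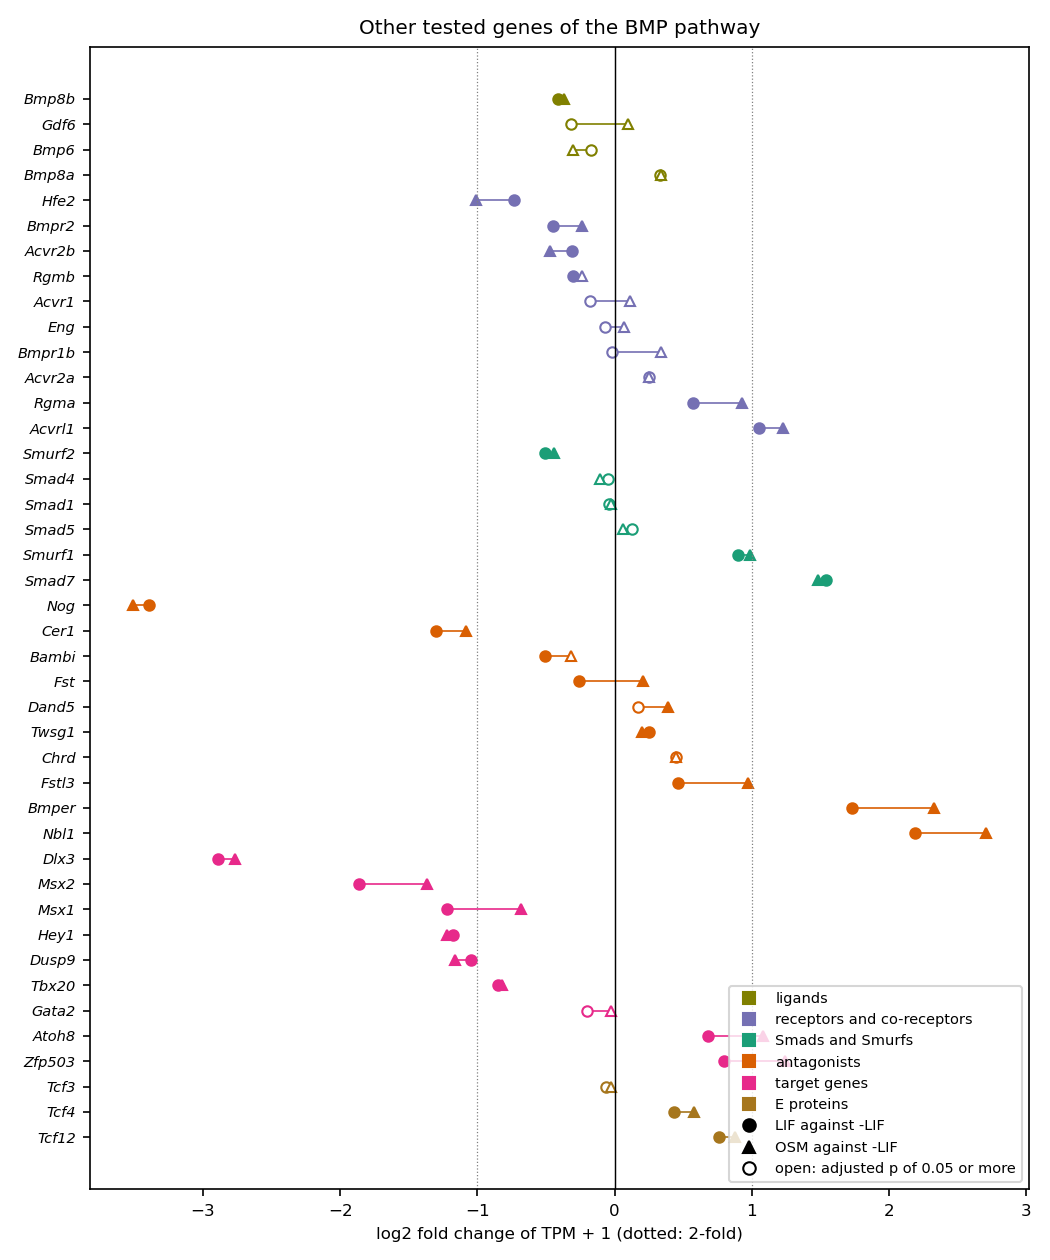
Difference in log2(TPM + 1) against -LIF-ESCs of other tested genes of the BMP pathway, ordered by role, with circles for LIF-ESCs and triangles for OSM-ESCs, filled where the limma adjusted p is under 0.05 and open otherwise. Nog at -3.39 and -3.51 and Nbl1 at 2.19 and 2.71 mark the ends of the genes drawn, both of them antagonists, and Smad1, Smad4 and Smad5 lie near 0.

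Between OSM-ESCs and LIF-ESCs no gene of the list passed the adjusted test. At an unadjusted limma p under 0.05 there were 11, beside 15.3% of all tested genes, and 10 of these were higher in OSM-ESCs, beside 9.8%. With voom 7 passed higher, beside 5.26% of all genes. Nbl1 differed by 0.52 (limma adjusted p = 0.0603) and Bmper by 0.59 (adjusted p = 0.181), beside 0.48 for Grem1. Nog differed by -0.12 with a 95% interval of -0.67 to 0.44.

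The tested genes whose pattern over the 6 libraries was most like that of a gene were found by the root mean square difference in log2(TPM + 1), with each gene set to a mean of 0. For Grem1 these were Tnc at 0.116, Mmp3 at 0.218 and Mgp at 0.229, all of them genes of extracellular matrix. Tnc had 2.51 and 2.14 TPM in -LIF-ESCs, 197 and 194 TPM in LIF-ESCs and 289 and 280 TPM in OSM-ESCs, and Mmp3 and Mgp were listed at 0 in both -LIF-ESCs libraries. The nearest genes to Id1 were Atox1 at 0.0377, Sema3e at 0.0382 and Galnt14 at 0.0482. Galnt14 was weakly expressed, with 1.26 and 1.69 TPM in -LIF-ESCs, 0.08 and 0.04 TPM in LIF-ESCs and 0.3 and 0.17 TPM in OSM-ESCs. Its TPM thus fell by a larger factor than that of Id1, and the nearness holds only on the log2(TPM + 1) scale. For Bmp4 they were Itgb3bp at 0.0261, Bcl6b at 0.0324 and Arc at 0.0347.

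Tnc and Mmp3 belong to a list of 28 fibroblast markers, which is set beside Grem1 because all cells had been grown on MEF feeders before the media were changed. The summed TPM of these markers was 523 to 554 in -LIF-ESCs, 1570 in both LIF-ESCs libraries and 2250 to 2270 in OSM-ESCs. Of 27 tested, LIF-ESCs had 23 called higher and 1 called lower, and OSM-ESCs had 23 and 0, with median log2 differences of 2.80 and 3.19. Of all tested genes, 13.3% were called higher and 8.09% lower with LIF, and 14.2% and 7.86% with OSM. Of the 27, 10 were under 1 TPM in both -LIF-ESCs libraries and so were tested only because they were higher with a cytokine. In -LIF-ESCs 11 of the 28 were under 1 TPM, Fap, Mmp3 and Ccl7 were at 0, and the smooth muscle gene Tagln alone gave 365 and 343 TPM of the sum. Between the cytokine groups all 27 were above 0 in OSM-ESCs against LIF-ESCs, by 0.186 to 0.729 on the log2 scale with a median of 0.405, 25 of them below an unadjusted limma p of 0.05, beside 9.8% of all tested genes, and 9 below an adjusted one, beside 0.463%. With a replicate block, or in a fit of only these groups, no gene of the 18556 passed the adjusted test, and without 1 library no more than 1 did. The log2 differences of Grem1, Nbl1 and Bmper between the cytokines, 0.48, 0.52 and 0.59, lie within the range of the markers, and so does the 0.46 of Id3. The range is wide and also holds Id1 at 0.24, Smad6 at 0.33 and Msx2 at 0.50. Unlike most of the markers, Id1, Smad6 and Msx2 were lower with either cytokine than in -LIF-ESCs.

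The TPM ratio of Grem1 to Tnc was 0.28 and 0.423 without a cytokine, 0.614 and 0.588 with LIF and 0.594 and 0.565 with OSM. Against Lox, another fibroblast marker, it went the other way, from 9.57 and 10.1 without a cytokine, where Lox had 4 reads in each library, to 1.08 and 1.02 with LIF and 1.11 and 1.06 with OSM. Grem1 as a share of the summed fibroblast markers was 7.7% and 7.25% with LIF, 7.56% and 7.02% with OSM, and 0.127% and 0.174% with neither. The share was thus of like size in both cytokine groups, whose replicates overlapped. The part of fibroblast RNA in the levels of Grem1, Nbl1, Bmper and Id3 was not tested.

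**Figure D5:**
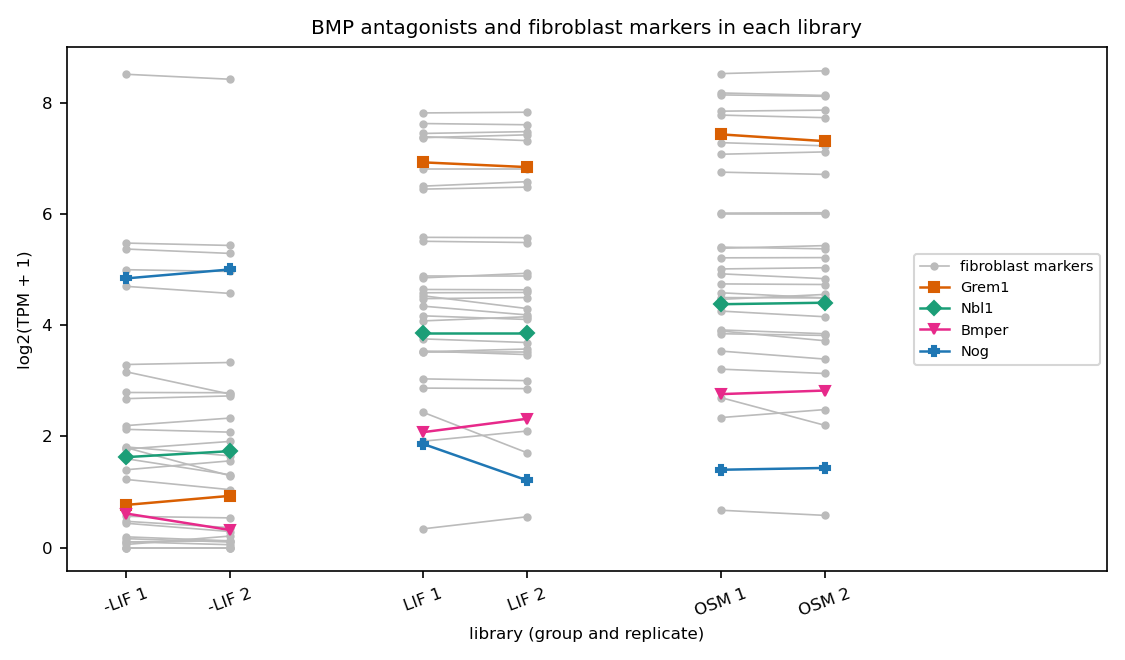
Expression as log2(TPM + 1) of 28 fibroblast markers (grey), Grem1, Nbl1, Bmper and Nog in each of the 6 libraries, with lines joining the 2 libraries of a group for the same gene. Grem1, Nbl1 and Bmper are low in -LIF-ESCs and higher in LIF-ESCs and OSM-ESCs, as most of the markers are, and Nog is at its highest in -LIF-ESCs.

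Markers of primitive streak, mesoderm and trophectoderm were lower with either cytokine, as Bmp2, Bmp7, Nog, Dlx3 and Smad6 were. The summed TPM of primitive streak and mesoderm markers was 210 in both -LIF-ESCs libraries, 5.41 to 6.62 in LIF-ESCs and 5.39 to 6.25 in OSM-ESCs. In each comparison 8 of 9 tested markers were called lower, beside 8.09% of all tested genes with LIF and 7.86% with OSM. Mixl1, Mesp1, Msgn1, Hand1, Fgf8 and Wnt3 were under 1 TPM in every cytokine library. These markers were tested only because they were higher in -LIF-ESCs. T, the Brachyury gene, had 61.9 and 59.4 TPM in -LIF-ESCs and no more than 1.05 TPM in any other library. The sum of trophectoderm markers was 2360 to 2380 TPM without a cytokine, 58.4 to 59.9 TPM with LIF and 70.6 to 75.5 TPM with OSM. Of 7 tested, 6 were called lower with LIF and 5 with OSM. Most of the sum in -LIF-ESCs came from the keratin genes Krt8, Krt18 and Krt19, at means of 982, 765 and 564 TPM. Cdx2 had 4.57 and 3.66 TPM there, and Gata3 4.29 and 4.84 TPM. Krt7 and Cdx2 were under 1 TPM in every cytokine library, and so were tested only because they were higher in -LIF-ESCs. Neural markers did not share this direction, since 4 of 5 tested passed higher and 1 lower in each comparison. Of 9 primitive endoderm markers tested, 9 passed higher with LIF and 6 with OSM, where Sox17, Dab2 and Cubn did not pass. Of all tested genes, 42.2% passed higher with LIF and 42.9% with OSM. Of the neural markers 2, and of the primitive endoderm markers 4, were under 1 TPM in both -LIF-ESCs libraries and were tested only through the cytokine groups. Whether the ligands, Nog and the Id genes were expressed in the same cells as these markers was not tested.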

How the data were processed

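The authors made libraries from poly(A) RNA with the NEBNext Ultra kit, and per the labels used Trimmomatic, HISAT2 with the mm10 genome and featureCounts. They deposited 1 table of TPM values for 6 libraries. Versions of these 3 tools, the gene annotation and the strand setting are not given in the sources used here.

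Reads were recovered from TPM with exon lengths of GENCODE M21 (28405 symbols matched once, 99.4%), and 95.4% of values lay within 0.02 of a whole read. The main test was limma 3.58.1 (R 4.3.3) on log2(TPM + 1), using lmFit and a trended eBayes, with all 3 groups in 1 fit, which left 3 residual and 5.3 total degrees of freedom, and Benjamini-Hochberg adjustment over 18556 genes. An exact permutation test of 2 against 2 libraries cannot go below p = 0.333. The study's test on counts was not repeated, since TPM values were deposited. Each p-value sets a difference between groups against the spread between replicates. That spread is pooled over the 3 groups and drawn toward that of genes of like expression. All replicates are of 1 mESC line, so the spread between lines is not covered.

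Alternatives were a pseudocount of 0.1, no filter, a filter of 5 TPM, rescaling by the median ratio, eBayes without a trend, only the groups compared, a replicate block, calls by adjusted p alone, limma's voom on recovered reads, and leaving out 1 library at a time. The fit was also run on simulated data with known changes.

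The 10 genes and the lists were chosen with earlier results of these data known. The text names all 10 genes, the 4 highest and 4 lowest called genes of the pathway list in each comparison with -LIF-ESCs, genes of that list that passed in OSM-ESCs against LIF-ESCs, and the 3 genes most like Id1, Bmp4 and Grem1, except microRNA genes and models that have only a Gm or Rik name. 1 item that this rule would name is not reported here. Promoter sequences are from RefSeq. Python 3.11.15 was used for the tables and plots, with pandas 2.3.3, matplotlib 3.10.9 and numpy 2.4.6.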

Additional observations from a re-analysis of the deposited data

Results flagged for a closer look

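Fibroblast markers were above their LIF-ESCs level in OSM-ESCs, which drew attention because the comparison is between the 2 groups that both received a cytokine. Of 27 markers tested, 9 passed at a limma adjusted p under 0.05, all of them higher in OSM-ESCs, and the markers summed to 1570 TPM with LIF and to between 2250 and 2270 TPM with OSM. Of all tested genes, 0.463% passed higher. These calls were lost with a replicate block and in a fit of only these groups, where 0 of 18556 genes passed, with 2477 and 2659 at an unadjusted limma p under 0.05, and without 1 library from 0 to 1 gene passed. With each marker the difference was under 2-fold, from 0.186 to 0.729 on the log2 scale. Grem1, at 0.48, lies within this range, and so do Id1 at 0.24 and Smad6 at 0.33, which were lower with either cytokine than in -LIF-ESCs.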

How the results depend on the processing

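The direction of each of the 10 genes against -LIF-ESCs held in every setting run. At an adjusted p alone, 2 of the 10 were higher and 7 lower in each comparison with -LIF-ESCs. The pathway list had 13 higher and 16 lower with LIF, and 15 higher and 13 lower with OSM. Of all tested genes, 42.2% passed higher and 25.9% lower with LIF, and 42.9% and 25.4% with OSM. A filter of 5 TPM left 4 genes of the list called lower in each comparison. Of all 13315 genes tested under it, 7.48% were called lower with LIF and 7.32% with OSM. In OSM-ESCs the genes called higher among the 10 were 1 after rescaling, 1 with voom and from 1 to 2 with a replicate left out, as Id3 went under 2-fold at 0.833, 0.919, 0.961 without -LIF-ESCs replicate 2 and 0.887 without OSM-ESCs replicate 2. Id1 passed 2-fold in OSM-ESCs at -1.005 with a pseudocount of 0.1 and without OSM-ESCs replicate 1, at -1.163 after rescaling, at -1.135 with voom and at -1.045 without -LIF-ESCs replicate 1. Bmp4 passed it at -1.035 after rescaling and -1.045 with voom. Between OSM-ESCs and LIF-ESCs, values near 0 changed sign: Bmp2 and Bmpr1a were -0.002 and -0.009 after rescaling, and Bmp2 was -0.002 with voom. With 1 library left out the values ran from -0.077 to 0.087 for Bmp2, -0.059 to 0.066 for Bmpr1a, -0.107 to 0.133 for Id2, -0.068 to 0.152 for Id4 and -0.066 to 0.111 for Bmp7. The cause of these changes was not tested. Where a replicate was left out, the lone library was assumed to vary like those of the other groups.

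Replicate numbers did not pair the samples, since deviations of libraries with the same number correlated at -0.043, -0.023 and 0.027 between groups. With a replicate block the called genes among the 10 were still 1 higher and 5 lower with LIF, and 2 higher and 4 lower with OSM, and over all genes the 15 calls between OSM-ESCs and LIF-ESCs, with 110 at an adjusted p, went to 0 under the block and in a fit of only these groups, while voom passed 1442. Bmpr1a missed the threshold under the block, at adjusted p-values of 0.0511 with LIF and 0.0533 with OSM, and Id4 passed it in OSM-ESCs at 0.0386 with eBayes without a trend. Bmp2 rested on 30 to 42 reads in each cytokine library and Grem1 on 33 and 35 reads in -LIF-ESCs, and Id4 was not tested under the filter of 5 TPM.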

Other observations

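Markers of primitive endoderm followed the cytokines in the other direction from those of mesoderm and trophectoderm. They summed to between 43.9 and 44.4 TPM without a cytokine, 118 and 119 TPM with LIF, and 91.3 and 92.7 TPM with OSM. Most of each sum came from Col4a1 and Lama1. In the same order of groups, the means were 29.4, 52.8 and 52.7 TPM for Col4a1 and 4.04, 34.2 and 19.0 TPM for Lama1. Of 9 tested, 6 were called higher in LIF-ESCs and 4 in OSM-ESCs, beside 13.3% and 14.2% of all tested genes, and 4 of the 9 were under 1 TPM in both -LIF-ESCs libraries, so that they were tested only because they were higher with a cytokine. Naive pluripotency markers summed to 2320 to 2340 TPM without a cytokine, 4410 to 4560 with LIF and 4130 to 4190 with OSM, and 7 of 12 were called higher in each comparison with -LIF-ESCs, beside the same shares of all genes. Nanog was an exception, with 436 and 431 TPM in -LIF-ESCs, 289 and 291 TPM in LIF-ESCs and 270 and 252 TPM in OSM-ESCs. This direction differs from that in the paper, which names Nanog among the genes with more RNA under either cytokine. The paper also reports less Nanog protein in -LIF-ESCs. The reason for the difference was not tested.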
